A study of Mus musculus with 15 samples.

Results

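Overexpression of Smarcd1 in 6DT1 cells was examined by comparing 3 libraries of a Smarcd1 overexpression line (OE) with 3 libraries of an empty-vector line (EV), which are 6 of the 15 libraries of the series. All 13501 genes listed for these libraries were compared, together with 30220 transcripts of 13142 genes. 6DT1 is a mouse mammary cancer cell line, which was grown in a monolayer, seeded at 70% confluence and collected 24 h later. Both lines were made with lentivirus and kept in blasticidin, so OE differed from EV by the insert, a mouse Smarcd1 coding sequence driven by a pol2 promoter and ending in a Myc tag, while EV carried the vector without it. Replicates were different passages, seeded on subsequent days, of the cells transduced with each vector, so that the p values below measure the spread between passages and not between independently made lines. The remaining 9 libraries, from lines with a scrambled hairpin (shScr) or either of 2 hairpins against Smarcd1 (KD4 and KD6), are used only to set values side by side.

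Smarcd1 encodes a subunit of the BAF (SWI/SNF) complex, which uses ATP to move and evict nucleosomes and so opens promoters and enhancers to transcription factors. The protein, also called BAF60a, is exchangeable with its paralogs Smarcd2 and Smarcd3, and it links the complex to sequence-specific factors such as nuclear receptors. Components of BAF are often altered in cancer, and the question asked by this comparison was what an excess of 1 subunit does to RNA levels in a mammary cancer cell.

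Levels are in CPM, read counts scaled to a common library total, as the authors deposited them. The read depth behind them is unknown, so no counting interval was computed. Log2 changes are OE minus EV from a limma fit of log2(CPM + 1) with 3 libraries per group, a scale that understates the change of low genes, and adjusted p values are corrected by Benjamini and Hochberg over all 13501 genes. A gene passed at an adjusted p under 0.05.

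The Smarcd1 gene stood at 31.9, 27.1 and 29.9 CPM in the EV libraries and at 70.4, 65.0 and 61.7 CPM in the OE libraries. The groups did not overlap, and the spread within each was small beside the difference. Smarcd1 rose 2.22-fold (log2 change 1.12, SE 0.07, limma adjusted p = 0.00355), and the call ended without EV replicate 3 (adjusted p = 0.0520) or OE replicate 2 (adjusted p = 0.0533).

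The deposited transcript table divides this rise in an unequal way. It lists 1 Smarcd1 transcript, ENSMUST00000023759, which lies on the + strand of chromosome 15 between 99532718 and 99544426 in build NCBIM37, has 13 exons, and is 3153 bases long, of which bases 36 to 1583 are coding, stop codon included (49.1%). The ends of its coding part are shown because the vector carried only coding sequence, without the stop codon, which the cloning primer left out. They were copied from the GENCODE transcripts of that build, with the start and stop codons in capitals:
Smarcd1 coding start: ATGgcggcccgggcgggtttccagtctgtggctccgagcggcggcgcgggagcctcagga
Smarcd1 coding end: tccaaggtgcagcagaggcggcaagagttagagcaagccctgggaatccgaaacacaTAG
The listed transcript had 32.4, 27.0 and 28.8 CPM in EV and 38.3, 37.4 and 36.4 CPM in OE. These groups did not overlap either, but the difference was 7.97 CPM at the transcript against 36.1 CPM at the gene, and the transcript did not pass (log2 change 0.34, SE 0.08, limma adjusted p = 0.441 over all transcripts). The gene level minus the transcript level was -0.507, 0.167 and 1.17 CPM in EV and 32.1, 27.6 and 25.4 CPM in OE. The listed transcript thus carried all of the Smarcd1 signal in EV (99.0% ± 2.77, SD, n = 3) and 56.9% ± 2.33 of it in OE (two-sided exact permutation test, p = 0.1, the smallest p that 3 against 3 allows). Of the 12998 genes in both tables, 106 had a gap whose mean was larger in OE than in EV by over 10 CPM, and Smarcd1 was at rank 26 of all genes in this difference (28.1 CPM). In 3 genes the gap was larger in every OE library than in every EV library by over 10 CPM, and Smarcd1 was 1 of them. Where the reads outside the listed transcript lie was not tested.

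**Figure D1:**
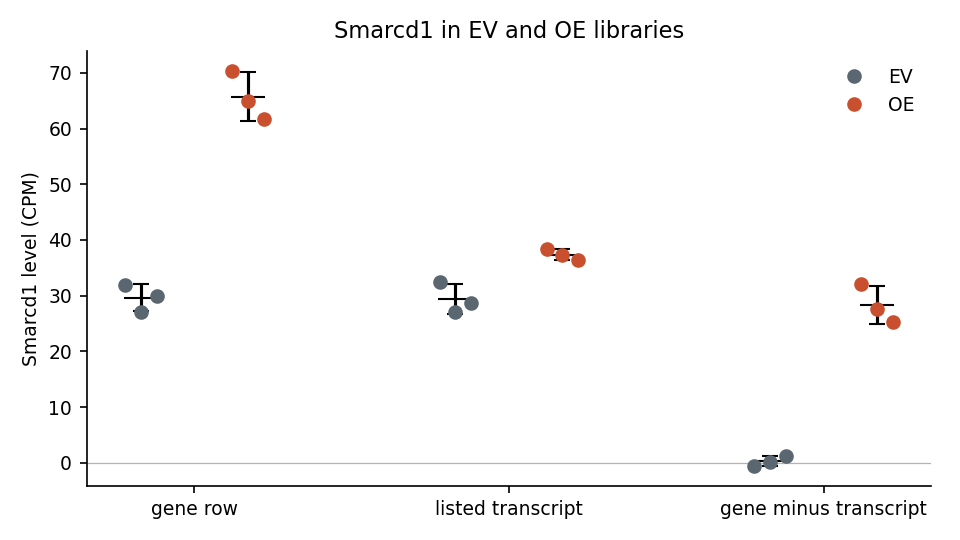
Smarcd1 level in CPM (linear axis) for the gene row, for the 1 listed transcript and for their difference, in 3 EV and 3 OE libraries (points), with group mean and SD (bars). The gene rises from 29.6 to 65.7 CPM, the listed transcript moves from 29.4 to 37.3 CPM, and the difference lies near 0 in EV and at 25.4 to 32.1 CPM in OE.

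The paralogs stayed near their EV level. Smarcd2 had 80.3, 89.9 and 94.5 CPM in EV and 90.2, 89.8 and 92.1 CPM in OE (log2 change 0.04, SE 0.06, adjusted p = 0.802), and the sign turned without EV replicate 1. Smarcd3 had 4.41, 3.91 and 5.02 CPM in EV and 4.36, 4.24 and 4.501 CPM in OE (log2 change -0.02, SE 0.10, adjusted p = 0.962), and its sign turned without EV replicate 3 or OE replicate 2. For both paralogs the OE libraries fell within or beside the range of EV.

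Smarcd1 was the only gene of 13501 that passed (0.00741% of all genes), both at an adjusted p of 0.05 and at 0.1. The mean was higher in OE for 53.8% of genes and lower for 46.2%. At an unadjusted p of 0.05, 1749 genes differed (13%), with 1037 higher (7.68%) and 712 lower (5.27%) in OE. Without EV replicate 1 there were 890 higher and 467 lower, and without EV replicate 2 the balance turned, with 861 higher and 966 lower. These differences were small, since 94.1% of the 1749 lay within 1.5-fold and 62.3% within 1.2-fold. Of the 171 genes whose means differed by over 1.5-fold, 39 had a mean of at least 4 CPM.

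The first principal component (40.2% of the variance) set EV replicate 1, at -23.7, against the remaining 5 libraries, which lay between 1.07 and 11.3, and this library received the lowest weight (0.420, others 0.900 to 1.79) when libraries were weighted by their spread. Values without it are given beside many of the gene groups and genes that it moved. CPM sums of the listed genes were 897916 to 923092 per library, and mitochondrially encoded RNA took 5.71% to 6.35% of the sum in EV and 6.12% to 6.71% in OE. Of the markers of other cell types, 1 of 9 for fibroblasts, 1 of 9 for immune cells, 2 of 7 for endothelium and 0 of 6 for adipocytes were listed, and defining genes such as Ptprc, Pecam1, Col1a1 and Adipoq were not among the listed genes. The luminal keratins Krt8 and Krt18 were listed at 309 to 415 and 331 to 407 CPM over the 6 libraries. Epcam and Cdh1, which usually mark mammary epithelium, were not listed, so 5 of 13 luminal markers were present.

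The genes with the smallest p after Smarcd1 are given as values, since none of them passed. The 11 that were higher in OE had adjusted p values of 0.105 to 0.157 and folds of 1.25 to 1.65. Of these and Smarcd1, 11 have an exon length, with a median of 11234 bases. In every one the lowest OE library was above the highest EV library, as the rule for naming them required.

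Hivep3, a large zinc finger protein that binds kappaB-like DNA motifs, had 58.1, 59.2 and 54.2 CPM in EV and 74.4, 78.3 and 78.0 CPM in OE (log2 change 0.42, SE 0.05, adjusted p = 0.105). Zfhx3, a transcription factor with many zinc fingers and homeodomains, had 126, 134 and 133 CPM in EV and 164, 181 and 181 CPM in OE (log2 change 0.42, SE 0.05, adjusted p = 0.116). The OE libraries lay above the EV libraries in both, and both passed when libraries were weighted (adjusted p = 0.0414).

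Setd1b and Kmt2d are histone methyltransferases that mark promoters and enhancers. Setd1b had 31.6, 33.5 and 32.2 CPM in EV and 45.2, 48.5 and 57.1 CPM in OE (log2 change 0.61, SE 0.08, adjusted p = 0.135). Kmt2d had 295, 305 and 307 CPM in EV and 384, 412 and 473 CPM in OE (log2 change 0.48, SE 0.07, adjusted p = 0.157). In both genes the EV libraries lay close together, and OE replicate 3 was the highest library.

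Arid1a encodes the DNA-binding subunit that defines the canonical BAF complex. It had 141, 148 and 154 CPM in EV and 186, 179 and 195 CPM in OE (log2 change 0.34, SE 0.05, adjusted p = 0.157). Ep300, a histone acetyltransferase that works at enhancers, had 160, 164 and 172 CPM in EV and 206, 200 and 215 CPM in OE (log2 change 0.32, SE 0.05, adjusted p = 0.157). Spen, a large corepressor, had 139, 151 and 156 CPM in EV and 187, 187 and 204 CPM in OE (log2 change 0.37). The 3 genes had log2 changes within 0.06 of each other.

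Gse1, found in histone demethylase corepressor complexes, had 33.2, 36.2 and 37.3 CPM in EV and 47.0, 47.1 and 47.6 CPM in OE (log2 change 0.40). Ppp1r13l, an inhibitor of p53, had 20.4, 21.4 and 19.6 CPM in EV and 29.3, 27.5 and 32.1 CPM in OE (log2 change 0.51). Camta2, a calmodulin-binding transcription activator, had 18.4, 17.95 and 17.8 CPM in EV and 24.3, 23.4 and 26.4 CPM in OE (log2 change 0.43). The 1 gene of this group without a symbol, ENSMUSG00000119584, was abundant, with 4846, 4784 and 4738 CPM in EV and 8235, 8496 and 6920 CPM in OE (log2 change 0.71, SE 0.09, adjusted p = 0.115). It took 0.518% to 0.533% of the listed CPM in EV and 0.750% to 0.934% in OE.

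The 12 genes that were lower in OE with the smallest p had adjusted p values of 0.105 to 0.199 and stood at 0.570 to 0.862 of the EV mean. They have a median exon length of 2330 bases (10 with a length). Wdr89, a WD repeat protein, had 198, 186 and 186 CPM in EV and 146, 145 and 149 CPM in OE (log2 change -0.37, SE 0.04, adjusted p = 0.105), and passed with library weights (0.0414) and after quantile normalization (0.0485). Anp32b, a histone chaperone, had 208, 204 and 167 CPM in EV and 147, 147 and 149 CPM in OE (log2 change -0.38, SE 0.08, adjusted p = 0.195). In both genes the OE libraries lay closer to each other than the EV libraries did.

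Trappc6b, part of the TRAPP tethering complex, had 29.96, 28.3 and 27.4 CPM in EV and 21.99, 23.5 and 23.01 CPM in OE (log2 change -0.31). Srp19, a protein of the signal recognition particle, had 39.2, 34.8 and 35.8 CPM in EV and 28.4, 29.2 and 30.4 CPM in OE (log2 change -0.31). Vta1, which assists endosomal sorting, had 37.1, 32.2 and 32.8 CPM in EV and 27.1, 27.7 and 26.7 CPM in OE (log2 change -0.31). All 3 had an adjusted p of 0.195, and their groups did not overlap, as the rule for naming them required.

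Mfap1b, a spliceosome component with a near-identical copy in the genome between which reads may be split, had 55.8, 47.9 and 44.8 CPM in EV and 37.7, 37.5 and 36.2 CPM in OE (log2 change -0.40). Scarna2, a small RNA of Cajal bodies that guides modification of spliceosomal RNA, had 41.7, 35.7 and 39.0 CPM in EV and 29.5, 29.8 and 32.3 CPM in OE (log2 change -0.33). Capns1 and Arpc3, the calpain small subunit and a subunit of the Arp2/3 actin nucleator, had log2 changes of -0.21 and -0.22.

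Casp12, a caspase linked to stress of the endoplasmic reticulum, had 10.2, 8.403 and 10.1 CPM in EV and 6.82, 6.91 and 6.86 CPM in OE (log2 change -0.43, SE 0.09, adjusted p = 0.195). It was also the only one of the 35 genes named by p or by size, Smarcd1 aside, that passed in a hairpin line. Against shScr (5.14 ± 0.606 CPM, SD, n = 3) Casp12 rose to 14.98 ± 2.91 CPM in KD4 (log2 change 1.37, limma adjusted p = 0.000273) and to 11.2 ± 0.591 CPM in KD6 (0.99, adjusted p = 0.00381). Of all genes, 9.58% passed in KD4 and 2.91% in KD6, so 1 of 35 is no larger than those shares. Smarcd1 itself fell in KD4 (9.13 ± 0.121 against 15.3 ± 1.01 CPM, log2 change -0.69, adjusted p = 0.000873) and not detectably in KD6 (14.4 ± 1.03 CPM, log2 change -0.09, adjusted p = 0.701). The hairpin and OE tables were normalized separately, and whether the changes of OE differ from those of the hairpin lines was not tested.

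**Figure D2:**
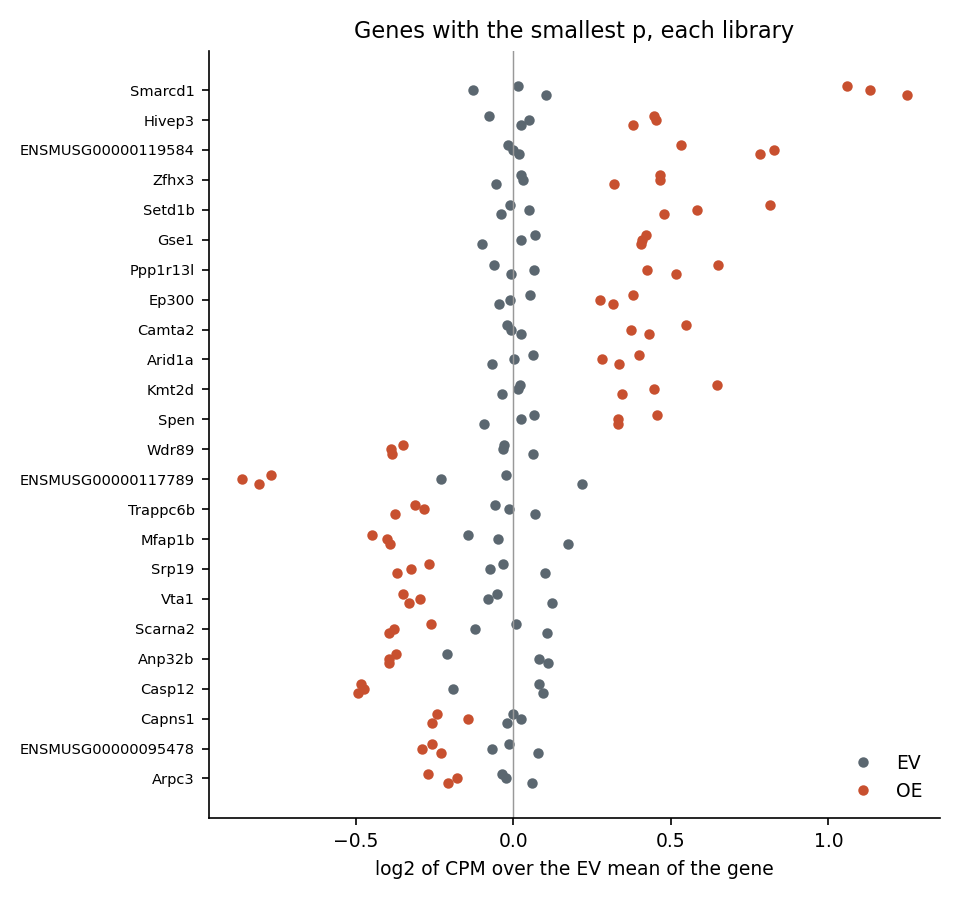
Level of each library over the EV mean of the gene (log2, linear axis of log values) for the 12 higher and 12 lower genes with the smallest p, with 3 EV and 3 OE points per gene. Smarcd1 is the only gene beyond 1 on this scale, and every gene shown has separate EV and OE points because the naming rule required it.

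Genes chosen for size of change among those at an unadjusted p under 0.05 were less even. Sphk1, the kinase that makes sphingosine 1-phosphate, had 4.04, 2.53 and 2.42 CPM in EV and 5.07, 5.03 and 7.26 CPM in OE (log2 change 0.77, SE 0.18, adjusted p = 0.217). Among lower genes, Dpm3, a subunit of dolichol phosphate mannose synthase, had 25.0, 14.5 and 14.2 CPM in EV and 8.94, 12.6 and 13.1 CPM in OE (log2 change -0.56). Atp5k, a small ATP synthase subunit, had 42.2, 23.1 and 21.7 CPM in EV and 17.6, 17.3 and 21.8 CPM in OE (log2 change -0.54). EV replicate 1 was the high library in both, and without it the log2 changes were -0.31 and -0.24. The olfactory receptor gene Olfr77 moved in the same way, from a log2 change of -0.66 to -0.28, while SNORA63, a small nucleolar RNA, kept -0.51 of -0.69.

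Across protein-coding genes, the change went with the length of the transcript. Exon length, the union of a gene's exons in GENCODE for NCBIM37, could be assigned to 10809 protein-coding genes, which were divided into 5 bins of equal number. In the shortest bin (195 to 2149 bases) the median log2 change was -0.07, and in the longest (6354 to 116828 bases) it was 0.05. The median was 0.001 over the 10809 protein-coding genes and 0.01 over all 13501 genes. The bins between had medians of -0.02, -0.002 and 0.02, so the order of the bins was the order of length. Of the 10809 protein-coding genes, 1208 had every OE library above every EV library and 1033 every OE library below. Over all 13501 genes the shares were 11.3% and 8.71%. In the shortest bin these shares were 3.28% and 19.2%, and in the longest 23.5% and 2.59%. The rank correlation of log2 change and exon length over the 10809 genes was 0.369 (Spearman, a description, since genes of the same 6 libraries are not independent). It was 0.372 for coding length, 0.303 for gene span and 0.255 for the length after the coding sequence, but 0.0400 for GC content and 0.0554 for mean level. Among the 3811 genes with a mean of at least 50 CPM it was 0.487.

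The pattern was seen library by library. When a library was set against the mean of the 6, a measure in which 1 group mirrors the other, its deviations had a rank correlation with exon length of -0.207, -0.230 and -0.188 in EV and 0.278, 0.161 and 0.224 in OE. The groups did not overlap (EV -0.208 ± 0.0209, OE 0.221 ± 0.0587, SD, n = 3, two-sided exact permutation test, p = 0.1, the smallest p this design allows). In the shortest bin the median deviations were 0.06, 0.005 and 0.03 in EV and -0.04, -0.04 and -0.03 in OE. Without EV replicate 1 the correlation over genes was 0.381. In the hairpin table the same measure differed as much between replicates of 1 line, with -0.323, 0.213 and 0.204 in KD6, 0.131, -0.0187 and -0.266 in KD4 and 0.140, -0.121 and 0.0810 in shScr. There the log2 change against shScr had a rank correlation with length of -0.0813 in KD4 and -0.0329 in KD6. With 1 line per vector, the insert and any other property of the lines or their libraries cannot be told apart, and the part of length in the gene group results was not tested beyond the values given.

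**Figure D3:**
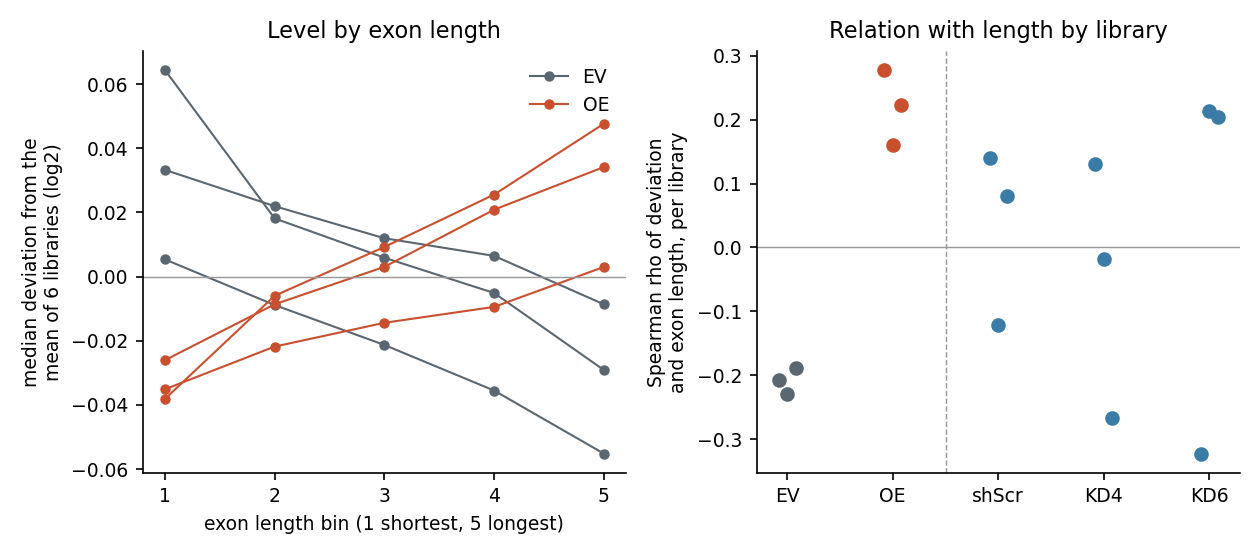
Left, median deviation from the mean of 6 libraries (log2) for protein-coding genes in 5 bins of exon length, 1 line per EV or OE library; right, Spearman correlation of deviation and exon length for each of 15 libraries, OE and EV being set against their own 6 and the hairpin lines against their own 9 (dashed line between). EV libraries fall from short to long genes and OE libraries rise, at -0.230 to -0.188 and 0.161 to 0.278, while KD6 libraries run from -0.323 to 0.213.

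Gene groups were described with 56 lists of pathways, complexes and markers. All were chosen with earlier results of these data known, so their directions are not independent evidence. Counts below are members at an unadjusted p of 0.05, to be read against 7.68% higher and 5.27% lower among all genes. These shares went with exon length, at 2.04% higher and 14.2% lower in the shortest bin and 16.8% and 0.879% in the longest. The counts are not corrected for length. No member of a list other than Smarcd1, which was kept out of the BAF list, passed over all genes. For the larger groups, the median is also given after a smooth curve of deviation on exon length was removed from each library. After this removal the median log2 changes of the 5 bins, from short to long, were -0.027, -0.003, -0.005, -0.003 and -0.008. The shortest bin thus kept part of its shift, which was -0.07 before. Members are named by small p, which favors separate libraries. Of all genes, 20% had separate OE and EV libraries.

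Enzymes that write and erase histone marks had mostly higher means in OE. Of 24 histone lysine methyltransferases measured, 13 were higher and none lower (median log2 change 0.12, 0.03 after the length curve was removed). Of 18 demethylases, 8 were higher (0.10 and 0.05), and of 16 acetyltransferases and partners, 8 (0.11 and 0.06). No member of the 3 lists was lower at that level. Without EV replicate 1 the counts were 11, 7 and 6. The median exon lengths of the 3 lists were 9155, 7364 and 7418 bases. These lie in the longest bin, where 16.8% of genes were higher and 0.879% lower at this level.

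Dot1l, the methyltransferase of the nucleosome core that accompanies elongation, had 45.7, 49.96 and 52.1 CPM in EV and 59.8, 59.3 and 67.5 CPM in OE (log2 change 0.33, SE 0.07, adjusted p = 0.195). Kmt2b, a promoter methyltransferase, had 73.8, 74.0 and 77.0 CPM in EV and 87.5, 86.4 and 99.2 CPM in OE (log2 change 0.28). Kdm6b, which removes the Polycomb mark, had 57.1, 61.5 and 59.9 CPM in EV and 67.7, 81.9 and 79.0 CPM in OE (log2 change 0.35). The OE and EV libraries were separate in all 3. Crebbp, the partner acetyltransferase of Ep300, had 202, 211 and 214 CPM in EV and 251, 250 and 272 CPM in OE (log2 change 0.30), and Ncoa6, a nuclear receptor coactivator, had a log2 change of 0.31.

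The list of HIVEP, ZFHX and related large zinc finger factors had the highest median of all lists with 5 or more members, 0.26 (0.17 after the length curve was removed), with 9 of 13 higher and none lower. Its median exon length was 9766 bases, in the longest bin, where 16.8% of genes were higher and 0.879% lower. Like the other lists, it was put together with results of these data known, so its direction is not independent evidence. Rreb1, a Ras-responsive zinc finger factor, had 70.1, 66.1 and 68.0 CPM in EV and 83.3, 78.5 and 88.2 CPM in OE (log2 change 0.29). Zmiz1, a coregulator of nuclear receptors and Notch, had 89.5, 92.0 and 104 CPM in EV and 113, 125 and 139 CPM in OE (log2 change 0.40). Neither gene had an OE library within the EV range.

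Among the other BAF and PBAF subunits, 6 of 25 were higher and none lower, with a median of 0.04 that was 0.003 without EV replicate 1 and -0.01 after the length curve was removed. Smarcc1, a core scaffold of the complex, had 177, 205 and 222 CPM in EV and 242, 242 and 251 CPM in OE (log2 change 0.29, SE 0.08, adjusted p = 0.244). Bicra, a subunit of the non-canonical GBAF form, had 18.2, 16.5 and 17.8 CPM in EV and 21.2, 21.7 and 25.6 CPM in OE (log2 change 0.36, SE 0.08, adjusted p = 0.213). Smarcc2, the other scaffold, had a log2 change of 0.17. The EV and OE libraries were separate for all 3, and the EV libraries of Smarcc1 spread more widely than its OE libraries.

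In other remodelling complexes, 6 of 23 members were higher and none lower (median 0.05, -0.01 after the length curve was removed). Their median exon length was 8488 bases, in the longest bin, where 16.8% of genes were higher and 0.879% lower. Srcap, the ATPase that exchanges a histone variant into promoters, had 190, 217 and 230 CPM in EV and 244, 260 and 289 CPM in OE (log2 change 0.32), and Ep400, a related ATPase, had a log2 change of 0.20. Histone deacetylases and corepressors had 6 of 20 higher and 2 lower (median 0.06, 0.01 after the length curve was removed), and without EV replicate 1 none was lower (median 0.04). In a list of inherited metastasis genes and BET proteins, 2 of 15 were higher and none lower, or 1 and 1 without EV replicate 1.

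Subunits of RNA polymerase II went both ways. Polr2a, the large catalytic subunit (7067 bases of exon), had 145, 155 and 168 CPM in EV and 193, 197 and 219 CPM in OE (log2 change 0.38, SE 0.07, adjusted p = 0.195). It was the only one of 13 subunits higher at this level, while 6 were lower and the median was -0.15 (-0.14 after the length curve was removed). Polr2j, a small subunit (1106 bases), had 40.6, 35.2 and 36.2 CPM in EV and 30.7, 30.6 and 33.3 CPM in OE (log2 change -0.23). Polr2i, another small subunit, had 11.4, 8.79 and 8.45 CPM in EV and 6.92, 7.78 and 7.45 CPM in OE (log2 change -0.32, -0.20 without EV replicate 1). EV replicate 1 was highest in both, and without it 1 subunit was lower at this level and the median was -0.05. Mediator, which bridges polymerase and activators, had 2 of 32 higher and 3 lower, near the shares over all genes, and a median of -0.02 (0.001 after the length curve was removed). Med13l (9320 bases) had a log2 change of 0.16 and Med10 (862 bases) of -0.26, or -0.17 without EV replicate 1.

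Genes of protein synthesis had mostly lower means in OE. Of 78 cytosolic ribosomal proteins, 27 were lower and none higher (median -0.13, -0.09 after the length curve was removed), and of 59 mitochondrial ribosomal proteins 11 were lower and none higher (-0.08 and -0.06). Without EV replicate 1 the counts were 18 and 6 and the medians -0.09 and -0.06. The median exon lengths were 1481 and 1777 bases, in the shortest bin, where 14.2% of genes were lower and 2.04% higher. Ribosomal protein genes have many processed copies in the genome, between which reads may be split.

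Rpl36, of the large ribosomal subunit, had 95.2, 93.9 and 97.3 CPM in EV and 86.3, 79.1 and 83.5 CPM in OE (log2 change -0.20). The EV libraries of Rpl36 lay close together, and all OE libraries were below them. Mrps11 and Mrps14, of the mitochondrial small subunit, had log2 changes of -0.30 and -0.35, the latter -0.23 without EV replicate 1. Ribosome biogenesis factors had 1 of 40 higher and 3 lower (median -0.05).

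Respiratory chain and ATP synthase genes of the nucleus showed the same direction, with 25 of 75 lower and none higher (median -0.14, -0.11 after the length curve was removed, and 10 lower with a median of -0.09 without EV replicate 1). Their median exon length was 1322 bases, also in the shortest bin. Cox6a1, a subunit of cytochrome c oxidase, had 107, 102 and 108 CPM in EV and 90.9, 95.4 and 92.7 CPM in OE (log2 change -0.18, SE 0.04, adjusted p = 0.228). Ndufa7, of complex I, had 38.1, 29.7 and 34.7 CPM in EV and 22.4, 24.3 and 28.8 CPM in OE (log2 change -0.43). Ndufa12, of the same complex, had 68.9, 46.7 and 52.6 CPM in EV and 39.4, 39.7 and 44.0 CPM in OE (log2 change -0.42, -0.27 without EV replicate 1). EV and OE did not overlap in any of them, but the EV libraries of Ndufa12 spread more widely than those of Cox6a1.

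Genes encoded by mitochondrial DNA went both ways. Of 15, 4 were higher and 2 lower, and the log2 changes ran from -0.33 to 0.43. The ribosomal RNAs were among the higher ones: mt-Rnr2 had 7371, 7540 and 7615 CPM in EV and 10263, 8960 and 10221 CPM in OE (log2 change 0.38, SE 0.08, adjusted p = 0.196), and it passed after quantile normalization (0.0439). mt-Rnr1 had 4537, 3883 and 4164 CPM in EV and 5556, 4961 and 6574 CPM in OE (log2 change 0.43). The messenger mt-Nd5, a complex I subunit, had 2805, 2566 and 2560 CPM in EV and 3230, 3224 and 3490 CPM in OE (log2 change 0.33). In all 3 the OE libraries lay above EV.

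Of 35 proteasome subunits, 12 were lower and 2 higher (median -0.09, -0.06 after the length curve was removed, with 6 lower and 1 higher without EV replicate 1). Psma4, of the core particle, had 92.8, 98.8 and 95.6 CPM in EV and 82.7, 87.9 and 85.1 CPM in OE (log2 change -0.17), and Psmb3 had a log2 change of -0.28. Antigen presentation by MHC class I, which depends on proteasome products, had 4 of 15 lower and none higher (median -0.09, -0.08 after the length curve was removed). Without EV replicate 1, 3 were lower and 1 higher (median -0.06). B2m, the invariant light chain, had 357, 362 and 365 CPM in EV and 317, 344 and 330 CPM in OE (log2 change -0.13). H2-T23, a non-classical class I gene with close relatives that could share its reads, had 6.61, 5.53 and 5.73 CPM in EV and 3.01, 3.599 and 5.08 CPM in OE (log2 change -0.53). Interferon-stimulated genes had 1 of 32 higher and 4 lower (median -0.08). Irf9, which carries the interferon signal to DNA, had a log2 change of -0.27, and Trim25, a ubiquitin ligase of RNA sensing, one of 0.24.

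Glycolysis had 3 of 19 lower and none higher (median -0.09, -0.07 after the length curve was removed and -0.04 without EV replicate 1). Gapdh had 542, 503 and 543 CPM in EV and 421, 452 and 482 CPM in OE (log2 change -0.23, SE 0.06, adjusted p = 0.240), and Aldoa, the aldolase, had 1081, 942 and 968 CPM in EV and 841, 866 and 898 CPM in OE (log2 change -0.20). Both genes, often used as references for expression, had separate EV and OE libraries. Tricarboxylic acid cycle enzymes had 1 of 19 higher and 4 lower (median -0.03), and chaperones 2 of 25 lower (median -0.03). NRF2 targets and glutathione transferases had 2 of 25 lower (median -0.05, 1 lower without EV replicate 1), among them Gstp1 (log2 change -0.29).

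Splicing was of interest because the study asked whether Smarcd1 acts on transcript choice. Of 26 SR factors and coactivators, 3 were higher and 1 lower (median -0.02), of 25 hnRNP proteins 7 were higher and 3 lower (median 0.01, or 6 and 1 with a median of 0.04 without EV replicate 1), and of 35 core spliceosome proteins none was higher and 1 lower (median -0.05, -0.02 without EV replicate 1). Srrm1, a coactivator of splicing, had 170, 168 and 175 CPM in EV and 192, 204 and 228 CPM in OE (log2 change 0.28, adjusted p = 0.204). Luc7l3, of the U1 particle, had 114, 99.3 and 106 CPM in EV and 100, 81.4 and 82.9 CPM in OE, which overlap (log2 change -0.27). Hnrnpul2 had a log2 change of 0.19. Integrator subunits had 2 of 14 higher (median 0.07), and CCR4-NOT subunits and their RNA-binding partners, the deadenylation machinery the study began from, had 1 of 19 higher (median 0.03).

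Of 20 Wnt genes, 6 were higher and none lower (median 0.07, 0.04 after the length curve was removed), among them Lrp5, a coreceptor, with 174, 193 and 196 CPM in EV and 212, 229 and 244 CPM in OE (log2 change 0.28). Bcl9l, a beta-catenin coactivator, had a log2 change of 0.36. Of 24 TGF-beta and BMP genes 4 were higher and none lower (median 0.06, or 0.03 both after the length curve was removed and without EV replicate 1). Without that library 4 were higher and 1 lower. The coreceptor Tgfbr3 had 62.8, 65.9 and 64.1 CPM in EV and 78.1, 77.0 and 74.0 CPM in OE (log2 change 0.25, SE 0.05, adjusted p = 0.195), and Ski, a repressor of Smad proteins, had a log2 change of 0.31. Notch had 4 of 22 higher (median 0.01, the same as over all genes), among them the coactivator Maml1 (0.25). Without EV replicate 1, 3 Notch genes were higher and 1 lower, with a median of 0.06.

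Growth factor receptors and ERK feedback genes had 5 of 26 higher and 1 lower (median 0.04). Igf1r had 232, 226 and 244 CPM in EV and 272, 267 and 275 CPM in OE (log2 change 0.21, SE 0.04, adjusted p = 0.195), and Spred2, an inhibitor of ERK signalling, had a log2 change of 0.30. Focal adhesion and actin genes had 6 of 30 higher and none lower (median 0.07, 0.02 after the length curve was removed), such as Tns1 (0.20), which links actin to integrins, and the integrin Itga5 (0.21). The median exon length of this list was 8610 bases, in the longest bin, where 16.8% of genes were higher and 0.879% lower. Laminins, matrix and proteases went both ways, with 5 of 32 higher and 4 lower (median -0.002), or 5 and 2 without EV replicate 1 (median -0.05). Hspg2, the basement membrane proteoglycan perlecan, had 537, 601 and 628 CPM in EV and 658, 767 and 850 CPM in OE (log2 change 0.36). Of 11 mesenchymal markers, 1 was higher (Col5a1, log2 change 0.21) and 1 lower (S100a4, -0.34, or -0.18 without EV replicate 1). No epithelial or junction gene of 17 reached an unadjusted p of 0.05.

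The lists of mitosis and of DNA replication held few genes at this level, below the shares over all genes, and their medians lay near 0. Of 37 mitosis genes none was higher or lower (median 0.01), and Mki67, a proliferation marker, had 263, 249 and 263 CPM in EV and 285, 270 and 266 CPM in OE (log2 change 0.08, SE 0.05, adjusted p = 0.506). Of 44 DNA replication and E2F genes 1 was higher (median -0.02). Of 33 replication-dependent histones 3 were lower, such as H2bc3 (log2 change -0.24), beside 5.27% over all genes. Their median exon length was 578 bases, in the shortest bin, where 14.2% of genes were lower. The histone median was -0.004, and -0.10 with 4 lower without EV replicate 1. Histone log2 changes ran from -0.49 to 2.87, and none was higher at an unadjusted p of 0.05. Cholesterol synthesis had none of 22 (median -0.01, 0.06 without EV replicate 1), fatty acid genes 2 of 26 higher and 1 lower, hypoxia genes 2 of 18 higher, p53 genes 4 of 27 higher and 1 lower, and the integrated stress response 2 of 22 higher. The unfolded protein response had 3 of 20 lower (1 without EV replicate 1), among them Calr, a chaperone of the endoplasmic reticulum (log2 change -0.16). Of the rest, immediate early genes had 1 of 21 higher, chemokines and NF-kB genes 2 of 21 lower, Myc and Max network genes 2 of 10 higher, and nuclear-retained RNAs 1 of 6 higher. Retinoic acid signalling (7 measured), stem cell markers (9) and the markers of other cell types had none. Without EV replicate 1 the counts of the lists in this paragraph moved by at most 1, except for the unfolded protein response.

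Over the 51 lists with at least 5 measured members, the rank correlation between a list's median change and its median exon length was 0.764, and 0.499 after the length curve was removed (descriptions, since lists share libraries and some genes). The median came nearer to 0 with the curve removed in 34 of the 51. Fewer cells of a kind and less RNA per cell cannot be told apart in bulk samples, and because CPM is a share, a rise in some genes lowers the share of others.

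**Figure D4:**
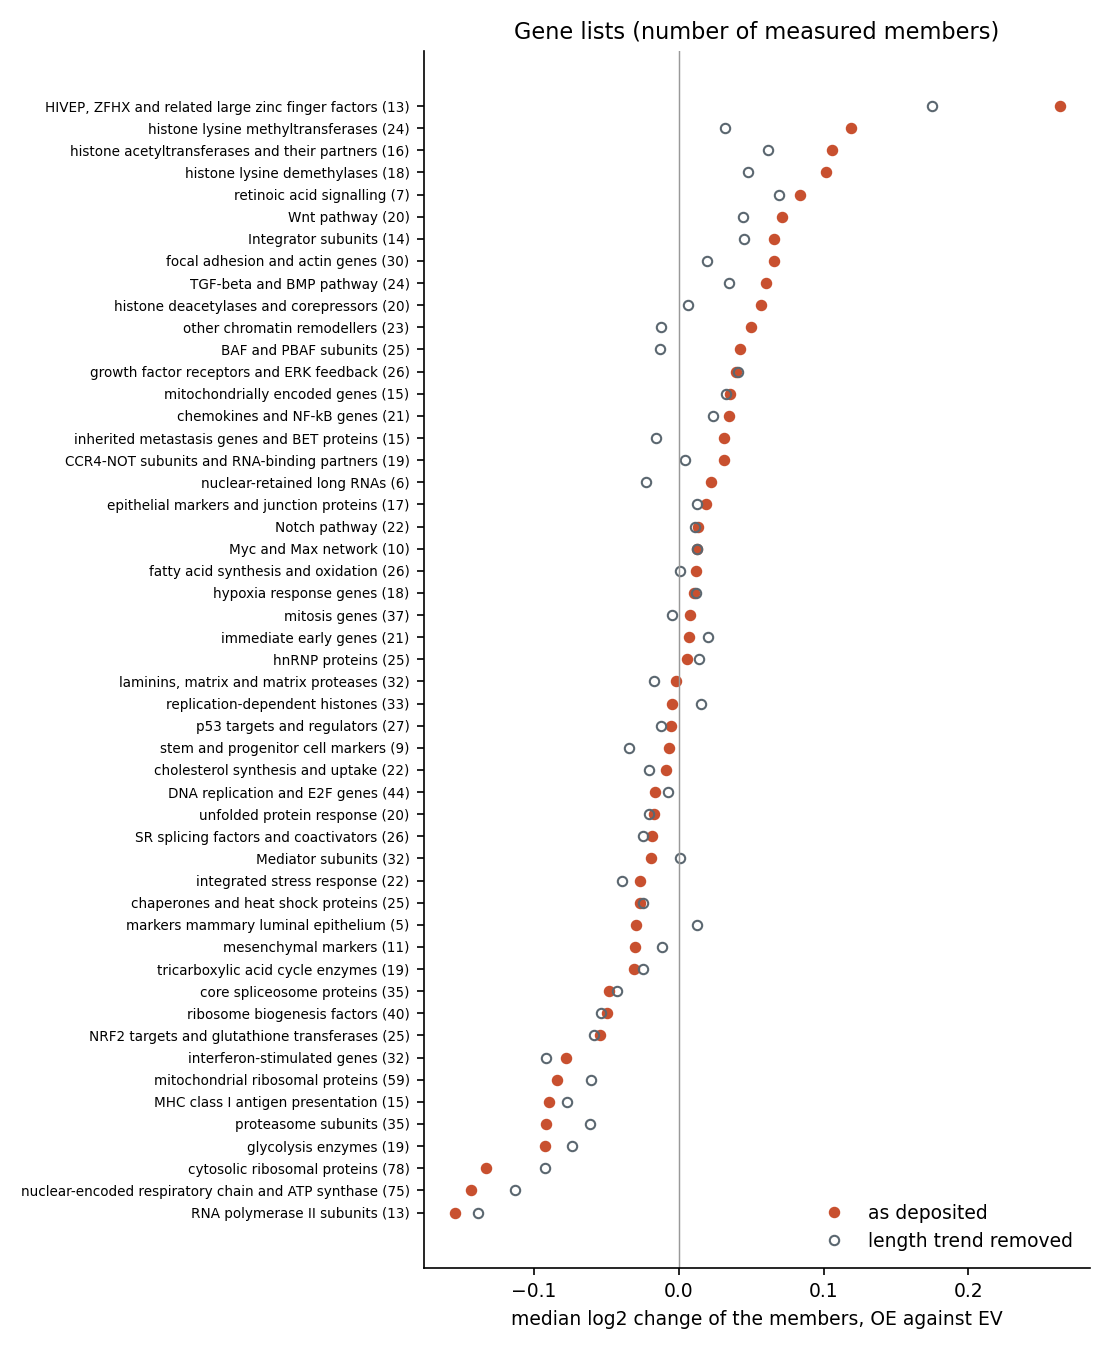
Median log2 change in OE against EV (linear axis of log2 values) of the measured members of 51 gene lists, as deposited (filled) and after removal of the length trend of each library (open). Large chromatin and zinc finger proteins lie at the top, 0.26 for the HIVEP and ZFHX list, and ribosomal, respiratory and polymerase lists at the bottom, -0.13 to -0.15.

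At the level of transcripts, none of 30220 passed in limma (0%), and none did when all 15 libraries were fitted together. At an unadjusted p of 0.05, 1837 were higher (6.08%) and 1080 lower (3.57%). The study, with its own analysis, reported transcripts that differed in OE monolayer cells under p and FDR cutoffs. It followed some of those shared with its knockdown by PCR. Why the calls differ was not tested. The transcripts with the smallest p are given as values (adjusted p = 0.441 for all). Their shares are of the summed CPM of the gene's listed transcripts.

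The smallest p belonged to ENSMUST00000138101 of Mdh2, the mitochondrial malate dehydrogenase, with 8.20, 8.35 and 8.34 CPM in EV and 15.6, 19.9 and 19.3 CPM in OE (log2 change 1.04, SE 0.11). Its share of Mdh2 was 5.32% ± 0.457 in EV and 12.3% ± 1.48 in OE. The main Mdh2 transcript, ENSMUST00000019323, had 159, 134 and 143 CPM in EV and 123, 120 and 137 CPM in OE, which overlap. The minor transcript was thus 2.20-fold as high while the major one was not separated.

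Hdac5 encodes a class II histone deacetylase that moves between nucleus and cytoplasm. Its transcript ENSMUST00000107150 had 12.5, 9.07 and 12.4 CPM in EV and 4.90, 4.19 and 4.31 CPM in OE (log2 change -1.16, SE 0.15), and ENSMUST00000107152 had 21.05, 20.7 and 27.5 CPM in EV and 30.6, 26.8 and 31.1 CPM in OE. The share of the first was 23.5% ± 1.45 in EV and 9.61% ± 1.02 in OE, and the share of the second 48.3% ± 6.29 and 63.3% ± 2.35. The means of the Hdac5 transcripts thus differed in opposite directions, the first with separate groups and the second with overlapping ones.

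Zyx, a protein of focal adhesions, had 17.16, 16.998 and 16.1 CPM of ENSMUST00000070635 in EV and 25.3, 26.3 and 27.9 CPM in OE (log2 change 0.63). Tec, a tyrosine kinase, had 14.2, 12.3 and 13.8 CPM of ENSMUST00000071944 in EV and 6.84, 7.32 and 6.16 CPM in OE (log2 change -0.89), with a share of 56.2% ± 3.20 in EV and 38.4% ± 2.10 in OE. Zfp142, a zinc finger protein, had 0.614, 0.554 and 0.368 CPM of ENSMUST00000127921 in EV and 2.66, 5.66 and 6.00 CPM in OE (log2 change 1.88), with a share of 1.85% ± 0.426 and 15.5% ± 5.61. Levels near or under 1 CPM rest on few reads. The other transcripts with the smallest p were the only listed ones of Wdr89 and of ENSMUSG00000119584, described above.

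**Figure D5:**
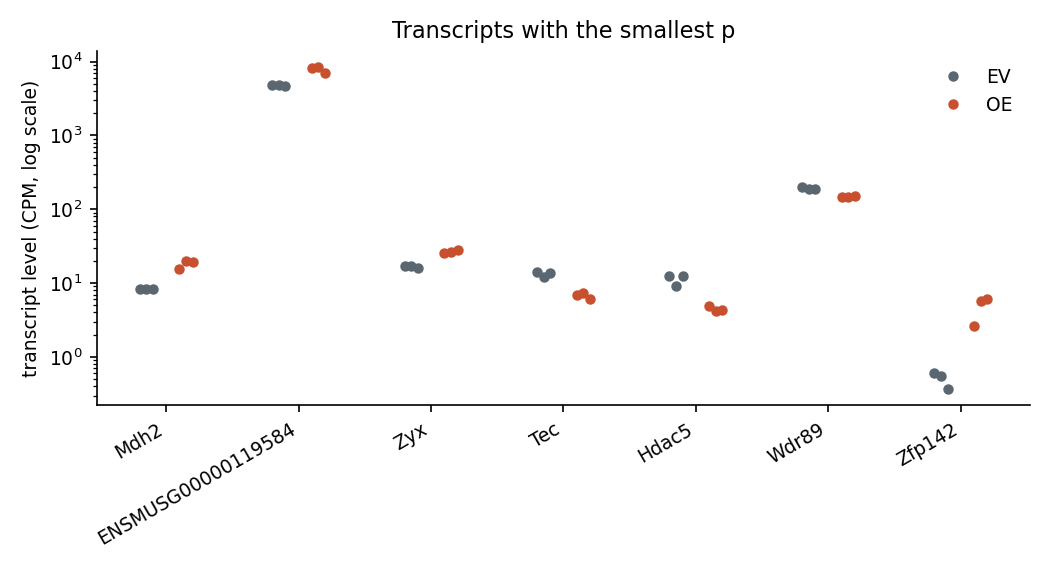
Level in CPM (log axis) of 7 of the transcripts with the smallest p, named by gene, in 3 EV and 3 OE libraries (points). EV and OE points are separate for all 7, and the transcript of Zfp142 lies below 1 CPM in EV.

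Transcript shares were tested in the 7077 genes with at least 2 listed transcripts. The diffSplice test of limma, which assumes 1 spread per gene, called 97 genes (1.37%) at an adjusted p of 0.05. A test with a spread for each transcript, added after the data were seen, called none (smallest adjusted p = 0.644, with 527 at an unadjusted p of 0.05). The count of genes thus depends on how the spread is estimated, and is given as a description.

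The genes with the smallest p in diffSplice were Mcph1, Zfp142, Mdh2, Sbno1 and Actn1. Mcph1, which controls chromosome condensation, had 4.13, 4.12 and 3.89 CPM of ENSMUST00000146819 in EV and 1.85, 2.69 and 2.07 CPM in OE, a share of 7.80% ± 0.221 and 4.07% ± 0.750. Sbno1 had 16.1, 12.5 and 12.2 CPM of ENSMUST00000200474 in EV and 6.00, 7.56 and 8.84 CPM in OE, a share of 6.04% ± 0.823 and 3.17% ± 0.684. Actn1, an actin crosslinker, had 0.861, 2.30 and 2.10 CPM of ENSMUST00000167327 in EV and 8.29, 6.64 and 6.76 CPM in OE, a share of 0.588% ± 0.226 and 2.31% ± 0.295. In these 3 genes and in Mdh2 the transcript described was a minor one of its gene.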

How the data were processed

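The values used are CPM, which the authors deposited per gene (13501 genes for OE and EV, 13669 for the hairpin lines) and per transcript. Per the labels, reads were aligned with STAR 2.7.8a to mm39; the methods of the study name Trimmomatic, Tophat, mm9 and Partek, so the path is not settled. The CPM hold no whole-read steps, the geometric mean of each listed gene was 1.00 CPM or more, and the depth is unknown. In the transcript table, 15 further columns match no label and were not used. Symbols matched 88.1% of genes and came, with exon lengths, from GENCODE for NCBIM37, not the labelled build. Values were log2(CPM + 1), tested with limma 3.58.1 in R 4.3.3 (intensity trend, 3 against 3), with Benjamini and Hochberg adjustment. Transcript shares were tested with diffSplice and Simes' method. The methods were tested on simulated data.

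Groups came from the labels. Named genes were Smarcd1, its listed transcript and paralogs, the 12 higher and 12 lower genes with the smallest p among those with a mean of at least 4 CPM and separate libraries, the 8 higher and 8 lower with the largest change at an unadjusted p of 0.05, up to 4 members of each of 56 lists, and, by smallest p, 8 transcripts and 5 genes of the usage test; predicted genes and pseudogenes were skipped. Some genes of the rule are not reported here. Members and lists were chosen with earlier results of these data known. Alternatives were a pseudocount of 0.1, a minimum mean of 5 CPM, quantile and median-of-ratios scaling, a replicate block, library weights, the transcript table's gene sums in 15 libraries, and each library left out. The length curve (lowess, span 0.3), the per-transcript share test and the length relation were added after the data were seen. Figures were drawn with matplotlib 3.10.9.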

Additional observations from a re-analysis of the deposited data

How the results depend on the processing

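Smarcd1 kept its direction under every alternative run, with log2 changes of 1.06 to 1.17 when a library was left out. Gene sums of the transcript table, which hold 1 Smarcd1 transcript, gave 0.34 (adjusted p = 0.769) and called 0 genes (347 higher and 395 lower at an unadjusted p of 0.05). Library weights called 6 genes and quantile normalization 3, and leaving out a library gave 0 or 1. No alternative called a transcript. Usage calls were 97, against 25 with the replicate block, 0 with the per-transcript share test, and 26 to 165 with a library left out. Fits without a library ranged from 0.32 to 0.38 for the length relation, which was 0.25 for the length after the coding sequence and 0.30 for gene span. At an unadjusted p of 0.05, 634 genes were higher without OE replicate 3, and 407 and 445 were lower without OE replicates 1 and 2. The log2 change of Smarcd2 turned in sign with library weights (-0.00875) and ran from -0.0237 to 0.0930 with a library left out, and that of Smarcd3 from -0.0887 to 0.0587; the causes were not tested.

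Replicate numbers did not pair the libraries: deviations of same-numbered EV and OE libraries correlated at -0.210, 0.284 and 0.00363. The replicate block gave 1 gene call and a Smarcd1 adjusted p of 0.0251. Unknown depth limits low levels, and 3 libraries per group bound each exact test.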

Other observations

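Genes that the annotation did not pair with a symbol leaned towards higher values in OE. Of 1608 such genes, 157 were higher and 56 lower at an unadjusted p of 0.05, with a median log2 change of 0.08. Among 10809 protein-coding genes the numbers were 829 and 607 with a median of 0.001. They were 30 and 41 among 805 pseudogenes (median 0.07), and 21 and 8 among 279 other RNAs (median 0.04). Over all 13501 genes, 7.68% were higher and 5.27% lower at this level. Most genes without a symbol also had no exon length, so the length relation could not be computed for them.

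Vwf encodes the von Willebrand factor of endothelial cells and is listed here although Pecam1 and Cdh5 are not. Its level rose with the replicate number in both groups. Vwf was picked out after its values were seen, and how many genes have such an order was not counted. Vwf had 8.51, 24.6 and 34.0 CPM in EV and 5.35, 27.6 and 36.4 CPM in OE (log2 change -0.11, adjusted p = 0.962), so that both first replicates were the low libraries.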
